A study of Rattus norvegicus with 32 samples.

Results

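The genes described here are the Toll-like receptors Tlr1, Tlr2, Tlr3, Tlr4, Tlr5, Tlr6 and Tlr9, the co-receptor genes Cd14 and Ly96, and the adaptor gene Myd88, measured in the left ventricle of septic rats. The 10 genes were found by their name in either version of the probe annotation, control spots excluded, and were represented by 14 of the 45598 probes of the array. Tlr6 had 3 probes, Tlr3 and Ly96 each had 2, and the other genes had 1. A gene with several probes was reported by the one with the highest mean over the 32 arrays.

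Cecal ligation and puncture (CLP), a surgical model of abdominal sepsis, was compared with sham surgery, and CLP plus landiolol, a drug that blocks cardiac β1 receptors for a short time, was compared with CLP. The animals were young adult Wistar rats with no transgene or deletion, and each array held the RNA of the left ventricle of 1 rat, frozen 20 h after surgery. In each sex there were 5 sham, 5 CLP and 6 CLP plus landiolol arrays. Landiolol was given by infusion after CLP, the other groups received saline in the same volume, no group received antibiotics, all rats received buprenorphine, and each heart was imaged in vivo and perfused ex vivo before it was frozen. The model therefore holds an untreated infection seen at a single time, and the tissue is a mixture of cardiomyocytes and other cells, in which more cells of a type and more RNA per cell cannot be told apart.

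The arrays were printed 8 to a slide, with male samples on 2 slides and female samples on the other 2, so that sex and slide cannot be told apart and levels were not compared between the sexes. The scanner files name another protocol for the first female slide than for all other slides. In females slide and protocol therefore cannot be told apart. The number of spots well above background ranged from 34920 to 43155 per array, and the lowest number was that of replicate 5 of the male CLP plus landiolol group. Cardiomyocyte markers were well above background throughout, with all 8 genes of the list kept in both sexes and none called at the thresholds used. Mb read 19.19 on every male sham and landiolol array, so that quantile normalisation left the brightest of these markers little room to differ. The mean of Actc1 was 18.86 in male sham and 18.17 in male CLP arrays.

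Toll-like receptors recognise microbial molecules and molecules released by injured cells. TLR2 pairs with TLR1 or TLR6 at the cell surface to bind bacterial lipopeptides, TLR4 binds lipopolysaccharide with the help of CD14 and of the small protein encoded by Ly96, TLR5 binds flagellin, and TLR3 and TLR9 bind double-stranded RNA and unmethylated DNA inside the cell. All of them except TLR3 signal through the adaptor encoded by Myd88, which recruits IRAK kinases and leads to the activation of NF-κB and to the expression of cytokines.

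The probes that read Tlr1, Tlr2 and Tlr6 are shown because these receptors are related in sequence while their levels behaved differently. Each has 60 bases, is given 5′ to 3′ as the scanner files hold it, and has in capitals the 8 bases that the 3 probes have in common.
Tlr1: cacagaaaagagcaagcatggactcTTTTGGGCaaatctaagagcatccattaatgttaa
Tlr2: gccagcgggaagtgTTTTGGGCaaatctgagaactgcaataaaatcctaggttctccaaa
Tlr6: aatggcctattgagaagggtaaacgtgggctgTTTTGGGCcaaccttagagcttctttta

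Placed on the shared bases, the Tlr1 and Tlr6 probes matched at 37 of 53 positions, the Tlr1 and Tlr2 probes at 32 of 49 and the Tlr2 and Tlr6 probes at 27 of 42. The longest run of identical bases was 14, between Tlr1 and Tlr2. In build rn4, which the scanner files name, the Tlr1 probe lies at chr14:46124542-46124601 on the plus strand and the Tlr6 probe at chr14:46100547-46100606 on the same strand, with 23935 bases between them. The Tlr2 probe lies on the minus strand at chr2:175608160-175608217. The files pair these probes with genes but give no exon or intron.

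The 2 probes of Ly96 are shown because they are nearly the same oligonucleotide, with the differing base in capitals.
Ly96 reported: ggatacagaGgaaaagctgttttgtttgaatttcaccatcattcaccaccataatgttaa
Ly96 other: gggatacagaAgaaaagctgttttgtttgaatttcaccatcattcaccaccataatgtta

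They overlap over 59 bases and differ at 1 of them, so that the pair is not independent evidence on Ly96.

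In males, Tlr1 and Myd88 rose after CLP and no receptor, co-receptor or adaptor of the 10 fell at an FDR of 1%. Of the 9 genes kept by the filter on dim probes, 2 were called against sham, where 7.81% of the 25866 probes tested were called, 3.88% higher and 3.94% lower, and 4 had an unadjusted p of at most 0.05, as did 28.8% of the probes. In females none of the 9 was called by limma or by SAM, where limma called 3.63% of 25395 probes, 1.82% in each direction. Tlr1 and Myd88 were nevertheless above the sham mean in all 5 female CLP arrays, and 4 of the 9 genes had an unadjusted p of at most 0.05, as did 23.1% of the probes. No reported probe separated the female sham and CLP arrays, where 8.32% of all probes did. Between CLP plus landiolol and CLP none of the 9 genes was called in either sex at an FDR of 5%, in limma or in SAM, where limma called 1.56% of probes in males (0.804% higher, 0.758% lower) and 0.0945% in females (0.0512% higher, 0.0433% lower). Tlr5 was not kept in either sex.

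**Figure D1:**
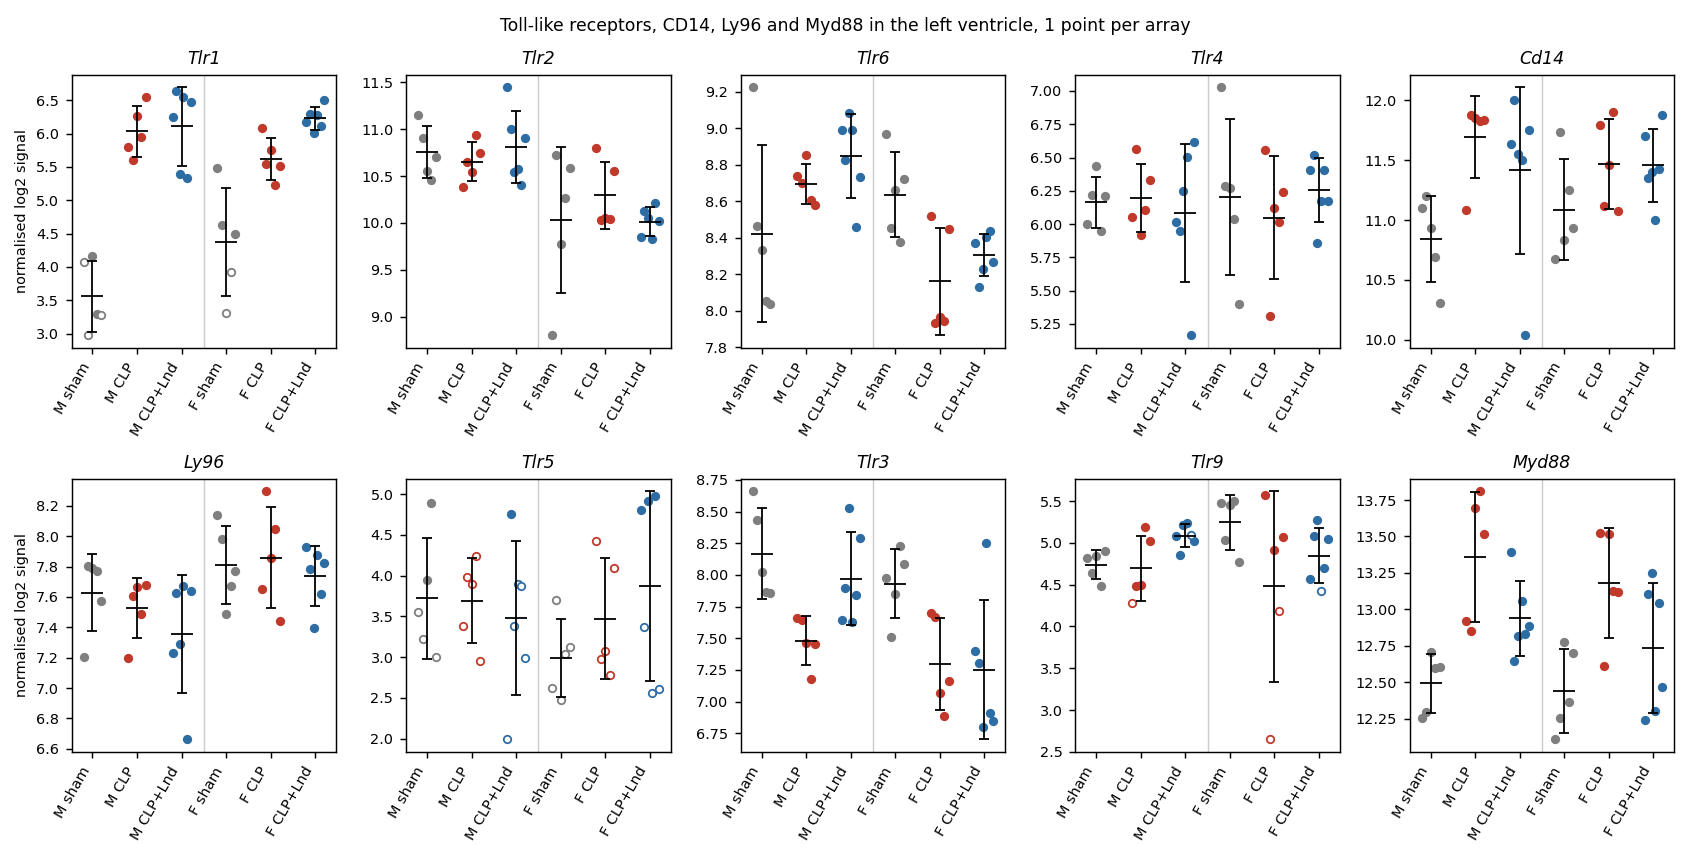
Normalised log2 signal of the 10 genes (vertical axis, 1 panel per gene) in males (M) and females (F) of the sham, CLP and CLP plus landiolol (CLP+Lnd) groups. Each point is 1 array, open points were not well above background, and bars give the mean and SD; every male CLP array lies above every male sham array for Tlr1 and Myd88.

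Tlr1, the partner of TLR2 for triacylated lipopeptides, showed the largest change of the 9 genes in males. Its normalised log2 signal in the male sham arrays was 4.08, 2.98, 4.17, 3.29 and 3.28, and only 2 of these 5 arrays were well above background. In the male CLP arrays it was 5.79, 5.61, 6.27, 5.95 and 6.55. The lowest CLP array thus stood above the highest sham array, as was the case for 12.3% of all probes in one direction or the other. The mean rose from 3.56 ± 0.53 to 6.03 ± 0.38 (SD, n = 5 each), a log2 fold change of 2.48 (SE 0.31, adjusted p = 8.32e-05, limma), which is 5.56-fold on the linear scale. In both sexes the probe passed the filter only through the CLP and CLP plus landiolol groups, where it is high. The fold thus rests on a sham mean of arrays that were mostly not well above background.

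The size of this change depended on the processing, and the sham signal of Tlr1 lies near the background. Normexp correction was run, here and below, with a constant of 50 added to every signal, which makes the fold changes of dim probes smaller. The background step and the constant were not varied apart. With normexp correction the log2 fold change was 0.81 and still passed the threshold (adjusted p = 9.18e-04). In the table deposited by the authors it was 1.06 and did not (adjusted p = 0.0331). Within the 2 male slides the difference was 2.36 and 2.67, and with the slide as a block it was 2.50 (adjusted p = 1.57e-04).

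In females the Tlr1 signal was 5.48, 4.63, 3.31, 3.93 and 4.49 in the sham arrays, of which 3 were well above background. It was 6.08, 5.54, 5.75, 5.23 and 5.52 after CLP. One sham array overlapped the CLP group. The log2 fold change was 1.26 (SE 0.29, adjusted p = 0.0139), which missed the 1% threshold in the model of all 16 arrays and passed it after scaling to the 75th percentile (adjusted p = 0.00614) and without replicate 1 of the sham group (log2 fold change 1.53, adjusted p = 0.00177). It was 0.38 with normexp correction and 0.25 in the authors' table (adjusted p = 0.0319 and 0.352). The difference was 0.96 within the first female slide and 1.50 within the second.

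Tlr1 stayed high in the CLP plus landiolol groups. In males its signal ranged from 5.33 to 6.64 with a median of 6.37, and in females from 6.01 to 6.51 with a median of 6.22. Against the same sham arrays the log2 fold change was 2.55 in males (SE 0.29, adjusted p = 7.69e-05) and 1.86 in females (SE 0.28, adjusted p = 6.09e-04), and Tlr1 was in each sex the only one of the 9 genes called in that comparison, where 4.15% of the probes were called in males (2.4% higher, 1.76% lower) and 5.25% in females (3% higher, 2.24% lower). An unadjusted p of at most 0.05 was found for 4 of the 9 genes in males and 3 in females, beside 24.2% and 26.7% of the probes. All landiolol arrays stood above all sham arrays in both sexes. The 2 groups stood apart, in one direction or the other, for 7.78% of probes in males and 9.73% in females. In females this call was lost with the row on the slide as a term (log2 fold change 2.27, adjusted p = 0.0838), where all female sham arrays lay in one row and all landiolol arrays in the other. In males it was lost in the authors' table (log2 fold change 0.99, adjusted p = 0.0502). With normexp correction the Tlr1 change was 0.86 in males and 0.67 in females and was called in both (adjusted p = 6.89e-04 and 5.01e-04).

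Against CLP, the Tlr1 difference under landiolol was 0.07 in males (95% interval -0.55 to 0.69, adjusted p = 0.923). It was 0.60 in females (95% interval 0.00 to 1.20, unadjusted p = 0.0489, adjusted p = 0.532), with all 6 landiolol arrays above the CLP mean but overlapping the CLP arrays.

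Tlr2, the receptor that TLR1 and TLR6 join, did not pass the test in any comparison. In males the signal was 11.15, 10.90, 10.55, 10.46 and 10.70 in the sham arrays and 10.39, 10.65, 10.55, 10.94 and 10.74 in the CLP arrays. The groups overlapped over nearly their whole range, with a log2 fold change of -0.10 (95% interval -0.51 to 0.31, adjusted p = 0.797). In females the sham arrays were spread from 8.80 to 10.72 with a median of 10.27, and the CLP arrays from 10.03 to 10.80 with a median of 10.05, a log2 fold change of 0.26 (95% interval -0.35 to 0.88, adjusted p = 0.651). Under landiolol the difference against CLP was 0.16 in males and -0.28 in females (adjusted p = 0.700 and 0.820).

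Tlr6, the other partner of TLR2 and the neighbour of Tlr1 on the chromosome, was on average higher after CLP in males and lower in females, and neither difference was called. Its reported probe read 9.23, 8.46, 8.33, 8.06 and 8.04 in the male sham arrays and 8.74, 8.70, 8.85, 8.61 and 8.58 in the male CLP arrays. One sham array was the highest of all 10, and the other 4 lay below every CLP array. The log2 fold change of 0.27 (95% interval -0.14 to 0.68, adjusted p = 0.396) was not called. Without that array it was 0.48 and was not called either (adjusted p = 0.0312).

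In females the reported probe of Tlr6 read 8.97, 8.45, 8.66, 8.38 and 8.72 in the sham arrays and 8.52, 7.93, 7.97, 7.94 and 8.45 after CLP. All 5 CLP arrays lay below the sham mean and 2 of them overlapped the sham range, with a log2 fold change of -0.47 (SE 0.15, adjusted p = 0.0646). The other 2 probes gave -0.51 and -0.62 (adjusted p = 0.0742 and 0.0898), the first of them with every CLP array below every sham array. In males they gave 0.17 and -0.02, the second of which was opposite in sign to the reported probe.

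The difference of the CLP effect between the sexes, female minus male, was -0.75 for the reported Tlr6 probe (SE 0.24, unadjusted p = 0.00457) and -1.28 for Tlr1 (SE 0.44, unadjusted p = 0.00649). Neither passed the FDR of 5% (adjusted p = 0.9999 for both), and of the 26492 probes in that test 0 were called (0%), with 995 (3.76%) at an unadjusted p of at most 0.05. Within slides the Tlr6 difference was -0.08 and 0.45 in males and -0.85 and -0.10 in females, so that its size was not the same on the slides of a sex.

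**Figure D2:**
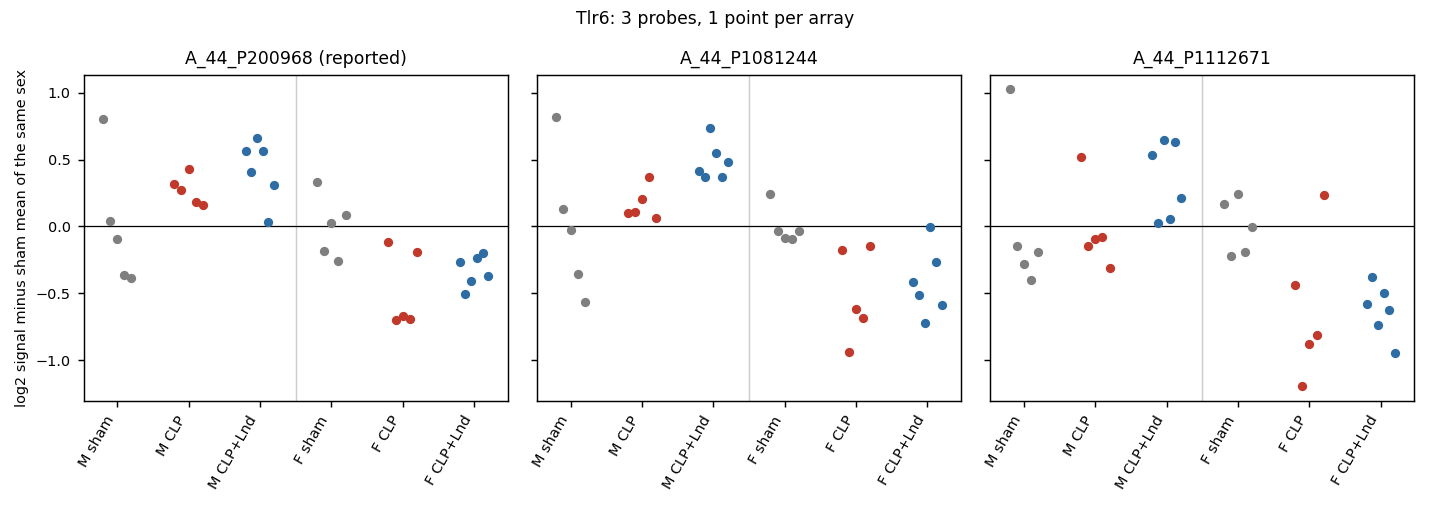
Log2 signal of the 3 Tlr6 probes minus the sham mean of the same sex (vertical axis), 1 panel per probe, reported probe first, 1 point per array in males (M) and females (F). For the reported probe all 5 male CLP arrays lie above 0 and all 5 female CLP arrays below it, while 1 male sham array lies far above its group.

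After landiolol the reported Tlr6 probe ranged from 8.46 to 9.09 in males and from 8.13 to 8.44 in females. Against CLP the difference of this probe was 0.15 in each sex (adjusted p = 0.714 in males and 0.826 in females). The other 2 probes gave 0.32 and 0.37 in males and 0.10 and -0.01 in females, none of them called. For the first of them every male landiolol array lay above every male CLP array. These 2 groups stood apart, in one direction or the other, for 2.26% of probes. Against sham the reported probe differed by 0.42 in males and -0.33 in females (adjusted p = 0.168 and 0.159). Its male value passed the threshold without replicate 1 of the male sham group (0.63, adjusted p = 0.00812). The other 2 probes gave 0.49 and 0.35 in males and -0.42 and -0.63 in females, none of them called. For the second of them every female landiolol array lay below every female sham array, where 9.73% of probes stood apart.

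Cd14, the surface and soluble protein that hands lipopolysaccharide to TLR4, was higher on average after CLP in males without passing the test in limma. Its probe lies at chr18:29374990-29375049 in rn4 on the minus strand. The signal was 11.10, 11.20, 10.93, 10.69 and 10.30 in the male sham arrays and 11.08, 11.88, 11.85, 11.83 and 11.83 in the male CLP arrays. Apart from the first, the CLP arrays lay close together and above every sham array. The log2 fold change was 0.85 (SE 0.30, adjusted p = 0.0707), or 1.80-fold, and SAM, run on the 2 groups alone at the same FDR, called it.

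In females Cd14 read 10.67, 11.74, 10.83, 11.25 and 10.94 in the sham arrays and 11.80, 11.12, 11.46, 11.90 and 11.08 after CLP. The groups overlapped, with a log2 fold change of 0.39 (SE 0.23, adjusted p = 0.338). Under landiolol the signal ranged from 10.04 to 12.005 in males and from 10.997 to 11.88 in females. The difference against CLP was -0.28 in males (adjusted p = 0.669) and -0.01 in females (adjusted p = 0.996), and the male value was -0.01 without replicate 5 of that group, the array with the fewest spots well above background.

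Tlr4, the receptor for lipopolysaccharide, did not pass the test in any comparison. The means of the 6 groups ranged from 6.05 to 6.25, with a log2 fold change after CLP of 0.03 in males (95% interval -0.45 to 0.51, adjusted p = 0.954) and -0.16 in females (95% interval -0.72 to 0.40, adjusted p = 0.790). Under landiolol the difference against CLP was -0.11 in males and 0.21 in females (adjusted p = 0.829 and 0.870).

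Ly96, which encodes the protein that holds lipopolysaccharide on TLR4, likewise did not pass the test. The reported probe shown above had a log2 fold change after CLP of -0.10 in males (95% interval -0.50 to 0.30) and 0.05 in females (95% interval -0.32 to 0.42), and the other probe gave -0.07 and 0.12. The adjusted p of the reported probe was 0.791 in males and 0.914 in females. Under landiolol it differed from CLP by -0.17 in males and -0.12 in females (adjusted p = 0.669 and 0.888).

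Tlr5, the flagellin receptor, was well above background on 2 of the 5 male sham arrays, on none of the 10 CLP arrays and on 1 male and 3 female landiolol arrays. It was therefore left out of the tests, and no fold change is given.

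Tlr3, the receptor for double-stranded RNA, was lower on average after CLP in both sexes. In males the reported probe, at chr16:50127005-50127064 in rn4 on the plus strand, read 8.66, 8.43, 8.02, 7.86 and 7.86 in the sham arrays and 7.66, 7.65, 7.46, 7.18 and 7.46 after CLP. Every CLP array lay below every sham array, and the log2 fold change of -0.69 (SE 0.20, adjusted p = 0.0271) missed the 1% threshold. The second probe gave -0.75 with a larger spread (SE 0.57, adjusted p = 0.439). With the slide as a block the reported probe gave -0.75 (adjusted p = 0.0108).

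In females the reported Tlr3 probe read 7.97, 7.51, 7.85, 8.23 and 8.09 in the sham arrays and 7.70, 7.66, 7.07, 6.89 and 7.16 after CLP. All CLP arrays lay below the sham mean and 2 overlapped the sham range, with a log2 fold change of -0.63 (SE 0.26, adjusted p = 0.145). Under landiolol the male signal ranged from 7.63 to 8.53 and lay 0.49 above CLP (SE 0.19, unadjusted p = 0.0203, adjusted p = 0.234), with all 6 arrays above the CLP mean. In females it ranged from 6.80 to 8.25 and differed from CLP by -0.04 (SE 0.25, adjusted p = 0.979). The difference between the sexes in this effect was -0.53 (SE 0.32, unadjusted p = 0.104, adjusted p = 0.968), with 0 of 26492 probes called (0%) and 1307 (4.93%) at an unadjusted p of at most 0.05.

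Tlr9, the receptor for unmethylated DNA, was dim. It was well above background on 27 of the 32 arrays, 3 of the 5 missing ones being CLP arrays and the other 2 landiolol arrays. The male signal was 4.82, 4.63, 4.84, 4.48 and 4.90 in the sham arrays and 4.28, 4.48, 4.50, 5.19 and 5.03 after CLP, a log2 fold change of -0.04 (SE 0.16, adjusted p = 0.911). In females it was 5.47, 5.03, 5.45, 5.499 and 4.77 in the sham arrays and 5.58, 2.65, 4.91, 4.19 and 5.07 after CLP. The female CLP arrays were spread widely, with a log2 fold change of -0.77 (SE 0.40, adjusted p = 0.274), and the lowest 2 of them, replicates 2 and 4, were not well above background. Without replicate 2 the value for Tlr9 was -0.31, in the authors' table -0.056, and within the 2 female slides -1.82 and -0.08. Under landiolol all 6 male arrays lay above the CLP mean, between 4.86 and 5.24, a difference of 0.39 (SE 0.15, unadjusted p = 0.0228, adjusted p = 0.247) that was not called. Within the male slides the Tlr9 difference was 0.63 and 0.01, and in the authors' table it was 0.058.

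Myd88, the adaptor, rose after CLP in males. Its probe lies at chr8:124299763-124299822 in rn4 on the minus strand. The signal was 12.26, 12.29, 12.70, 12.60 and 12.60 in the sham arrays and 12.92, 12.85, 13.70, 13.81 and 13.52 after CLP. The groups did not overlap, although the highest sham array and the lowest CLP array were close. The mean rose from 12.49 ± 0.20 to 13.36 ± 0.44 (SD, n = 5 each), a log2 fold change of 0.87 (SE 0.20, adjusted p = 0.00646), or 1.83-fold. With Tlr1 and Tlr3, Myd88 made 3 of 9 genes whose male sham and CLP arrays did not overlap, against the 12.3% of probes given above.

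The call of Myd88 lay close to the threshold. It was lost with no filter on dim probes (adjusted p = 0.0125), in a fit of the 2 groups alone (adjusted p = 0.0200) and without sham replicate 1, 2, 4 or 5 or CLP replicate 3, 4 or 5, each left out alone, with an adjusted p of 0.0118 to 0.0205. The log2 fold change was between 0.76 and 0.997 without any 1 array, and 0.88 and 1.03 within the 2 slides.

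In females Myd88 read 12.11, 12.26, 12.78, 12.37 and 12.70 in the sham arrays and 13.53, 12.61, 13.52, 13.13 and 13.12 after CLP. Only 1 CLP array overlapped the sham range, and the log2 fold change was 0.74 (SE 0.23, adjusted p = 0.0610), or 1.67-fold, which was not called. Within the female slides the Myd88 difference was 0.34 and 1.076. The difference of the CLP effect between the sexes was -0.14 (95% interval -0.77 to 0.50, adjusted p = 0.9999).

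Under landiolol Myd88 lay between the sham and CLP means in both sexes. The male arrays ranged from 12.65 to 13.39 with a median of 12.86, and the female arrays from 12.24 to 13.25 with a median of 12.75. The difference against CLP was -0.42 in males (SE 0.19, unadjusted p = 0.0385, adjusted p = 0.306) and -0.45 in females (SE 0.22, unadjusted p = 0.0642, adjusted p = 0.571), with 5 of 6 arrays below the CLP mean in each sex. Neither was called. Within slides the Myd88 difference was -0.21 and -0.74 in males and -0.02 and -0.76 in females, so that in females it was seen on 1 of the 2 slides. Against sham it was 0.45 in males and 0.29 in females (adjusted p = 0.150 and 0.448).

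The 250 bases before the RefSeq start of Myd88 are shown because it is the adaptor that rose, and because matches to the letters searched occur in them. They lie at chr8:127956231-127956480 of build GRCr8 on the minus strand, a build other than that of the probes. Capitals mark matches to the letters searched.
Myd88: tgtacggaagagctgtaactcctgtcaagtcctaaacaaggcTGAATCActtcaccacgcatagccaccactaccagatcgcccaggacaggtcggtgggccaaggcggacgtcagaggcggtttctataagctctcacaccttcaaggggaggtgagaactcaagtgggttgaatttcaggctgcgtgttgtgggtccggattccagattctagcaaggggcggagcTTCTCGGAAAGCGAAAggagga

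The letters searched, on both strands, were GGG and TTCC with any 3 bases between them for NF-κB, TGANTCA for AP-1, GAAA and GAAA with any 2 bases between them for interferon regulatory factors, and TTC and GAA with any 3 bases between them for STAT proteins. Of the 33469 RefSeq upstream regions of this length, 4.53%, 6.34%, 3.41% and 7.67% held them in that order. Myd88 held the AP-1 letters 208 bases before the start, the STAT letters at 22 bases and the interferon regulatory factor letters at 16 bases, the last 2 overlapping. Of the 9 genes found in the table, Tlr2 held the NF-κB letters and Tlr9 the AP-1 letters, and Tlr1 held none of the 4. A match is a description of letters and shows no binding.

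**Figure D3:**
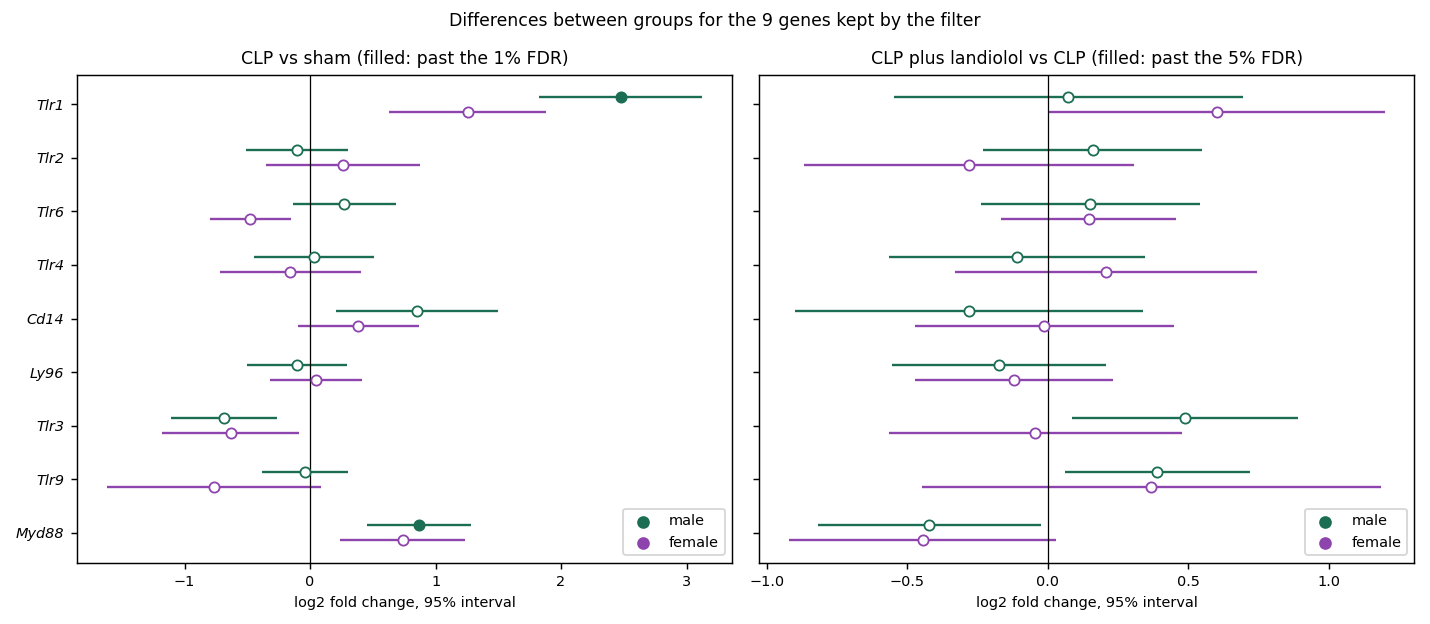
Log2 fold change with its 95% interval (horizontal axis) of the 9 genes kept, CLP vs sham on the left and CLP plus landiolol vs CLP on the right, in males and females. Filled points passed the FDR of the comparison (1% and 5%); only Tlr1 and Myd88 in male CLP vs sham did, and the highest upper bound in the right panel is 1.1998, for Tlr1 in females.

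As a group, the 9 genes showed no common direction after CLP. In males 5 of 9 log2 fold changes were positive with a median of 0.03, beside a median of 0.01 over all probes tested. In females 5 of 9 were positive with a median of 0.05, beside -0.02 over all probes. Against CLP the median under landiolol was 0.07 in males and -0.01 in females, and 3 of 9 genes in males and 1 of 9 in females had an unadjusted p of at most 0.05, where 14.8% and 9.34% of all probes did. For none of the 9, read by the reported probe, did the landiolol and CLP arrays stand apart without overlap, as they did for 2.26% of probes in males and 1.15% in females.

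Of the pathway genes around these receptors, Lbp, S100a8 and Il10 rose in both sexes. The counts of each list after CLP stand beside 7.81% of all probes called in males and 3.63% in females. Lbp, the plasma protein that carries lipopolysaccharide to CD14, rose after CLP in males, from 6.78 ± 0.39 to 8.65 ± 0.35 (SD, n = 5 each), and in females, from 6.89 ± 0.38 to 8.92 ± 0.21. The log2 fold change was 1.87 (SE 0.21, adjusted p = 4.07e-05) and 2.03 (SE 0.22, adjusted p = 5.97e-05). Of the 14 other receptors and cofactors looked at, 10 were kept in males and 9 in females. Lbp rose and Tlr13 and Tril fell in males, and Lbp was the only one called in females. Tlr13, a sensor of bacterial ribosomal RNA, changed by -0.79 in males (adjusted p = 0.00498) and by -0.89 in females (adjusted p = 0.0181), and Tril, an accessory protein of TLR4, by -1.35 and -0.84 (adjusted p = 0.00412 and 0.0541).

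Among 7 endogenous ligands, S100a8, one subunit of calprotectin and a ligand of TLR4, had the largest differences of all the listed pathway genes. In males none of the sham arrays but all 5 CLP arrays had it well above background, and its level after CLP was at least 11.3-fold higher (adjusted p = 2.69e-05), with the sham arrays set to the lowest signal that counts as well above background. In females it was well above background on 1 of 5 sham arrays and all 5 CLP arrays, with a log2 fold change of 4.15 (SE 0.52, adjusted p = 1.90e-04). S100a9, its partner subunit, gave 2.50 in males (SE 0.48, adjusted p = 0.00235) and 1.95 in females (SE 0.54, adjusted p = 0.0329), and was called in males only. No other gene of the list was called after CLP.

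Among 20 adaptors and kinases, of which 19 were kept in males and 18 in females, 1 was called in each sex and both fell. Of all probes 3.94% were called lower in males and 1.82% in females, so that these counts are near that share. Sarm1, an adaptor that acts against TRIF signalling, changed by -1.58 in males (SE 0.28, adjusted p = 0.00146), with 5 of 5 sham and 1 of 5 CLP arrays well above background, and was not kept in females. Traf6, the ubiquitin ligase downstream of the IRAK kinases, changed by -0.84 in females (SE 0.17, adjusted p = 0.00585) and by 0.28 in males (SE 0.17, adjusted p = 0.290). Of 8 negative regulators Irak3, which blocks the signalling of IRAK kinases, rose in males by 1.27 (SE 0.25, adjusted p = 0.00259) and had a log2 fold change of 0.85 in females (adjusted p = 0.0471).

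Of 14 genes that the pathway induces, Il10, an anti-inflammatory cytokine, was the only one called in either sex. In males its log2 fold change was 3.36 (SE 0.66, adjusted p = 0.00269), with 1 of 5 sham and 4 of 5 CLP arrays well above background. In females no sham array was, while 4 of 5 CLP arrays were, and the rise was called (adjusted p = 0.00122). With the sham arrays raised to at least the lowest signal that counts as well above background, the CLP mean was 2.82-fold higher. That mean includes a CLP array that was not well above background. The log2 fold change of Tnf was -0.45 in males and -1.11 in females, and that of Il6 0.57 and 0.15, none of them called. Several genes of this list were already bright in male sham arrays. Their mean log2 signal there was 15.98 for Cxcl1, 15.10 for Ccl2, 14.60 for Nfkbia, 14.56 for Icam1 and 14.37 for Cxcl2. It was 13.997 for Tnf, 13.22 for Il1b, 10.48 for Ptgs2, 10.30 for Nfkbiz and 8.93 for Il6. Lower means were those of Ifnb1 (5.53), Nos2 (4.74), Il10 (2.77) and Il12b (2.66). The part of surgery and perfusion in these sham levels was not tested. No gene of the 5 pathway lists was called between CLP plus landiolol and CLP in either sex.

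**Figure D4:**
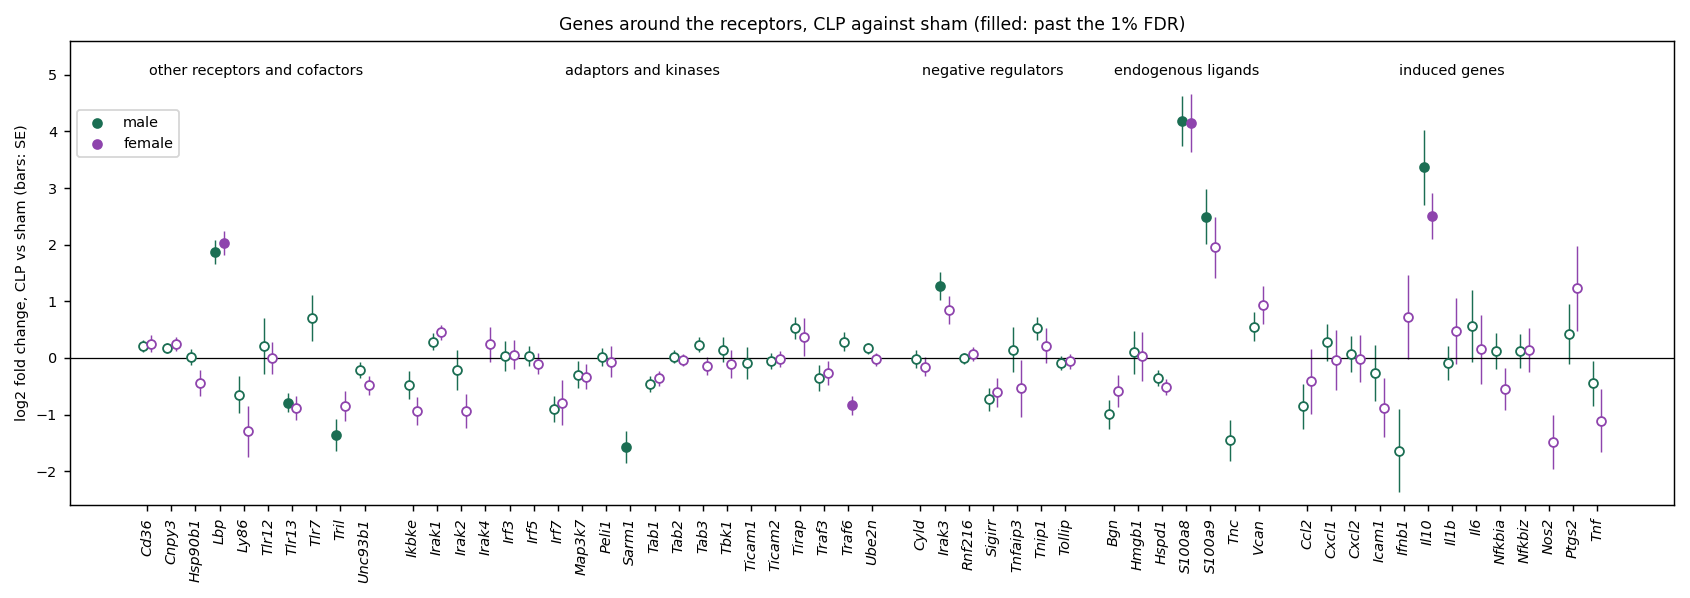
Log2 fold change, CLP vs sham, with its SE (vertical axis) of the genes of 5 pathway lists kept by the filter, in males and females. Filled points passed the FDR of 1%; Lbp, S100a8 and Il10 are filled and positive in both sexes, and Traf6 is the only gene filled in females alone.

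Macrophage and monocyte markers were also higher after CLP. Of 10 markers 9 were kept in each sex. In males 4 rose and in females 3, beside 3.88% and 1.82% of all probes called higher. In each sex 8 of the 9 log2 fold changes were positive. The mean of Csf1r went from 7.84 to 7.77 in males. Adgre1, the gene of the F4/80 antigen, had a log2 fold change of 2.79 in each sex (adjusted p = 7.66e-05 in males and 2.59e-04 in females), and Lyz2 and Cd68 were called in both. The summed linear signal of the list ranged from 29283 to 40994 in male sham arrays, from 53046 to 72167 in male CLP arrays and from 42154 to 70532 in male landiolol arrays. In females it ranged from 34279 to 38622 over the 4 sham arrays in which every marker had a value, from 49036 to 72107 after CLP and from 54261 to 72424 with landiolol. In males the sum rests mostly on its brightest markers, Lyz2 and C1qb. Their mean log2 signal was 13.32 and 13.88 in male sham and 14.75 and 14.28 in male CLP arrays. The sums of the CLP and sham arrays did not overlap in either sex. In males this was also so for Tlr1, Myd88 and, downward, Tlr3, and for 12.3% of all probes in one direction or the other. The part of these cells in the values of Tlr1, Cd14 and Myd88 was not tested.

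The other marker lists differed in how many genes were kept and called. Of 7 neutrophil markers only Fcgr3a was kept, and the defining markers Mpo, Csf3r, Cxcr2, Mmp8, Camp and Ngp were not. Csf3r, Cxcr2 and Camp were well above background on none of the 10 sham arrays and on 1, 2 and 1 of the 5 male CLP arrays and 1, 2 and 3 of the 5 female ones. Sham arrays were raised to at least the lowest signal that counts as well above background. The CLP means of these genes were then 1.62-fold, 1.68-fold and 1.49-fold higher in males. In females they were 1.57-fold, 1.56-fold and 2.24-fold higher. These are not lower bounds, since the CLP means include arrays not well above background. No test was made, as the genes were not kept, and their part in the values of Tlr1, Cd14 and Myd88 was not tested. Mpo, Mmp8 and Ngp were well above background on 1, 0 and 0 of the 5 male sham arrays and on no male CLP array. Their male means (3.09 and 2.43, 2.13 and 2.00, 2.30 and 2.04 in sham and CLP) are therefore not read as a change. Fcgr3a had a log2 fold change of -0.69 in males and -1.28 in females, called in neither sex. Its signal in linear units was 18.01 to 72.6 in male sham and 20.2 to 37.1 in male CLP arrays, and 25.9 to 130 and 11.1 to 173 in females. Of 8 lymphocyte markers 4 were kept in males and 3 in females and none was called after CLP, with Cd3e, Cd79a and Ms4a1 among those not kept. Their sum ranged from 2101 to 2623 in male sham and 1908 to 2234 in male CLP arrays, and from 1638 to 2455 and 1308 to 2488 in females. The erythroid sum ranged from 1966 to 2617 in female sham arrays and reached 109853 in 1 female CLP array. Of 5 fibroblast markers, all kept, 3 fell in males, beside 3.94% of all probes called lower, and none was called in females. The median log2 fold change of the fibroblast list after CLP was -1.89 in males and -1.20 in females. All 6 endothelial markers were kept in both sexes and none was called after CLP. The part of these cells in the values above was not tested.

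**Figure D5:**
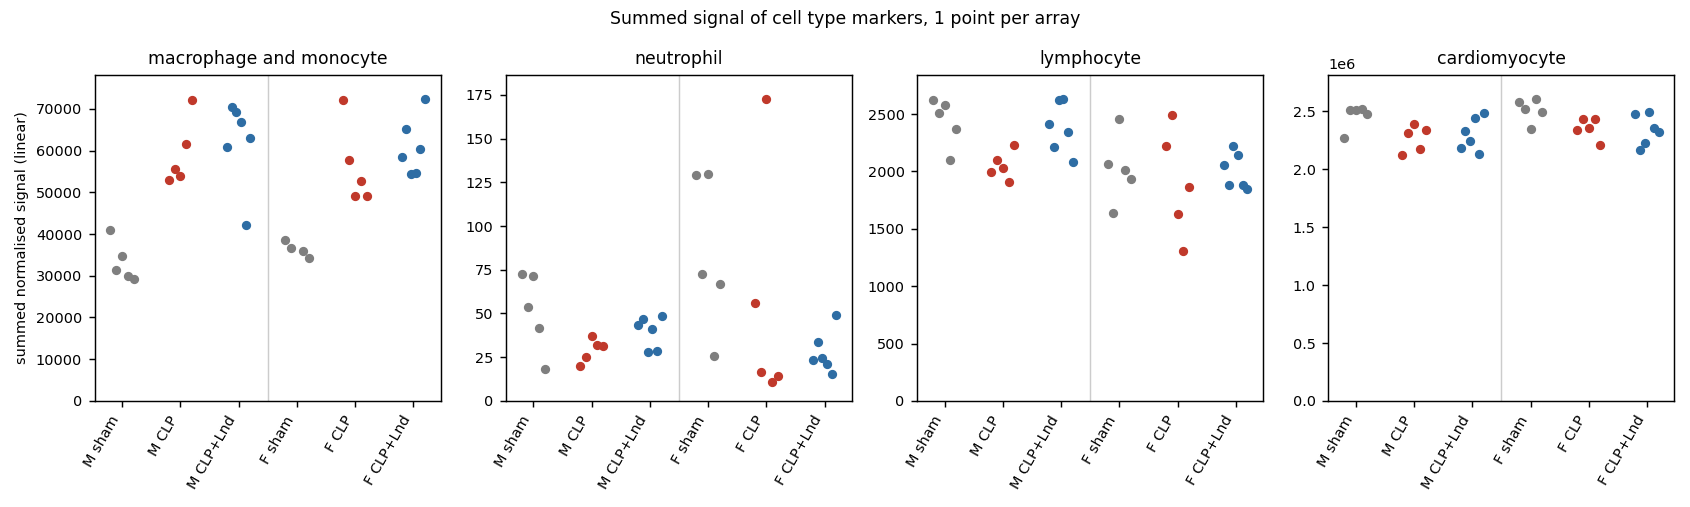
Summed normalised linear signal (vertical axis) of the kept markers of 4 cell types, 1 point per array, in males (M) and females (F) of the sham, CLP and CLP plus landiolol (CLP+Lnd) groups. The macrophage and monocyte sum lies between 29283 and 40994 in sham arrays of both sexes and at or above 42154 in all others, while the cardiomyocyte sums of sham, CLP and CLP plus landiolol arrays overlap.

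After the group means had been removed, the genes whose residual levels were most like those of a receptor were ranked by the lower of the Pearson correlations over the 16 male and the 16 female arrays, which share slides. For Tlr2 they were Il1b, Timp1 and Ccl2 (0.82, 0.80 and 0.79), for Cd14 Clec4d, Aig1 and Hsd11b1 (0.85, 0.79 and 0.78), and for Myd88 Nipa2, Tiparp and Zfp36l1 (0.84, 0.81 and 0.80). For Tlr6 they were Dock2, Gda and Psme2 (0.74, 0.69 and 0.67), for Tlr4 Kif2a, Kpna3 and Tor1aip2 (0.78, 0.67 and 0.66), and for Tlr3 Pcgf2, Ap2m1 and Pllp (0.71, 0.70 and 0.65). Ly96 gave the highest values of the 9 genes, with Imp3, Egln3 and Lactb (0.89, 0.89 and 0.88), Tlr9 gave C1galt1, Entpd1 and Pelo (0.83, 0.75 and 0.72), and Tlr1 gave the lowest, with Acer3, Mapkap1 and Slc33a1 (0.61, 0.56 and 0.55). Among the genes themselves the closest pair was Tlr9 and Myd88 (0.57 in each sex), followed by Tlr2 and Cd14 (0.58 in males and 0.46 in females). These are descriptions of the arrays at hand, picked as the highest of many.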

How the data were processed

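Total RNA of 32 left ventricles was hybridised to 1-colour Agilent rat arrays (Cy3). The authors deposited the scanner output of Agilent Feature Extraction 10.5, whose processed intensity is spot brightness after background subtraction, and log2 values that, per the study's methods, were quantile-normalised and filtered at 80%; any offset in those is unknown. The authors called genes by SAM. The number of arrays limits the precision.

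Here, control and outlier spots were left out, log2 of the processed intensity was taken, spots of one probe were averaged, and males and females were each quantile-normalised. A probe was kept if, in 1 group or more, 80% of the arrays had it well above background. A probe below that share in sham was thus kept only through a septic group. Groups came from the labels, and replicate numbers only name arrays. limma 3.58.1 in R 4.3.3 was fitted to all 16 arrays of a sex, with Benjamini-Hochberg FDR of 1% against sham and of 5% between both septic groups. The sex difference was an interaction over 32 arrays normalised together, at 5%. Alternatives were another scaling, background correction, filter, prior and threshold, the authors' values, slide and row terms, SAM (100 permutations) and each array left out. A term for the day read from sample names and the count of any probe of a gene were added after seeing the data. The fits were tested on simulated data. Upstream sequences are RefSeq's (GRCr8).

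The genes and lists were chosen with earlier results of these data known. Named are all 10 genes, each pathway gene called in CLP vs sham or between both septic groups (at most 5 per list), and the 3 genes most like each receptor. Tnf, Il6, the other induced genes given with a sham level and single markers were named after their values were seen.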

Additional observations from a re-analysis of the deposited data

Results flagged for a closer look

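Over the 9 genes kept and 6 groups, 54 sets of arrays were checked for a value far from the rest of its group, where chance gives about 1 in 20. Cd14 had 2 such values. Replicate 1 of the male CLP group lay at 11.08, while the other 4 lay between 11.83 and 11.88, and without it the log2 fold change against sham was 1.004 (adjusted p = 0.0366). Replicate 5 of the male CLP plus landiolol group lay at 10.04, while the nearest of the others was at 11.50. That array also had the fewest spots well above background (34920) and the lowest median processed signal (49.2) of the 32. Without it the Cd14 difference against sham was 0.84 (adjusted p = 0.0120) and that against CLP was -0.01 (adjusted p = 0.995).

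In 1 of 18 pairs of effects compared between the sexes the arrays lay on opposite sides. The share of all probes that did so was not counted. For the reported probe of Tlr6, 5 of 5 male CLP arrays lay above and 5 of 5 female CLP arrays below the sham mean of their sex, although neither effect was called (adjusted p = 0.396 and 0.0646). The female minus male difference was -0.75 (95% interval -1.25 to -0.25), with an adjusted p of 0.9999 in limma, so that a difference between the sexes was not called. For the other 2 probes it was -0.68 and -0.59 (unadjusted p = 0.0134 and 0.0848). The second of these changed by -0.02 in males and -0.62 in females, so that its mean effects were not opposite in sign.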

How the results depend on the processing

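No paired analysis was made, as the groups were made up of different rats. Of the 9 genes, the 2 called in male CLP vs sham became 1 with no filter, in the authors' table and with only the 2 groups compared, and were 1 to 2 without any 1 array; Myd88 was the gene lost except in the authors' table, where Tlr1 was lost. The count rose to 3 with SAM, which added Cd14, and at an FDR of 5%, which added Tlr3. In male CLP plus landiolol vs sham the count of 1 became 0 in the authors' table and was 1 to 2 without any 1 array. In female CLP vs sham the count of 0 became 1 with scaling to the 75th percentile and at an FDR of 5%, and was 0 to 1 without any 1 array. In female CLP plus landiolol vs sham the count of 1 became 0 with the row as a term and was 1 to 2 without any 1 array. It was 0 under all settings run between the 2 septic groups and for the sex differences. Without replicate 4 of the female CLP plus landiolol group Tlr3 was called against sham (-0.88, adjusted p = 0.00877).

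The sign turned for some values near 0, none of them called. With the 75th percentile it did for Tlr4 in male CLP vs sham (-0.041) and female CLP plus landiolol vs sham (-0.021), the latter also with normexp (-0.026), the row (-0.084) and the day (-0.050). In the authors' table it did against CLP for Tlr1 in males (-0.071) and Tlr9 in females (-0.059). With the slide it did for Tlr9 in male CLP vs sham (0.0068), Cd14 in female CLP plus landiolol vs CLP (0.0034), and the sex differences under landiolol of Tlr9 (0.035) and Myd88 (0.0075). With the row it did for Tlr3 (0.23) against CLP and Ly96 (0.12) against sham in landiolol-treated females, and with the day for Tlr6 (-0.026) against CLP in males and Tlr2 (0.054) against sham in females. The causes were not tested.

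Without any 1 array, values of both signs came, in male CLP vs sham, for Tlr4 (-0.062 to 0.099) and Tlr9 (-0.16 to 0.062); in male CLP plus landiolol vs CLP, for Tlr1 (-0.034 to 0.23) and Tlr4 (-0.22 to 0.075); and in male CLP plus landiolol vs sham, for Tlr2 (-0.069 to 0.16) and Tlr4 (-0.185 to 0.11). In female CLP vs sham they came for Tlr2 (-0.045 to 0.43), Tlr4 (-0.36 to 0.049) and Ly96 (-0.061 to 0.15), in female CLP plus landiolol vs CLP for Tlr3 (-0.24 to 0.056), Tlr9 (-0.089 to 0.64) and Cd14 (-0.11 to 0.096), and in female CLP plus landiolol vs sham for Tlr2 (-0.33 to 0.15), Tlr4 (-0.15 to 0.25) and Ly96 (-0.15 to 0.011). Of the sex differences they came after CLP for Tlr3 (-0.074 to 0.15), Tlr4 (-0.39 to 0.018) and Myd88 (-0.27 to 0.0058), and under landiolol for Tlr6 (-0.083 to 0.083), Tlr9 (-0.49 to 0.22), Cd14 (-0.0070 to 0.42), Ly96 (-0.087 to 0.16) and Myd88 (-0.16 to 0.11). Tlr5 was left out for signal near the background, and Tlr1 and Tlr9 were below that limit on some arrays.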
